A study of Sus scrofa with 9 samples.

Results

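The miR-15, miR-16, miR-195, miR-497, miR-424 and miR-503 entries of the table were described here together with miR-450 and miR-542, whose genes lie beside miR-424 and miR-503 in other mammals. The entries were taken by name, with both arms and every length variant, and not by their values. The names gave 29 of the 1345 entries, and these held 28 different sequences because ssc-miR-503 and bta-miR-503-5p_R+3 were 1 sequence listed under 2 names with the same 9 values. In an entry name, the prefix gives the species of the matching reference (ssc pig, bta cattle, hsa human, mmu mouse, rno rat), a plus or minus after L (5' end) or R (3' end) tells how many bases an entry is longer or shorter than that reference, and ss stands for a substituted base. The small RNA came from primary porcine granulosa cells (PGCs), the follicle cells that surround and feed the oocyte, taken from healthy 3 to 5 mm follicles of Landrace x Yorkshire sows. PGCs were kept for 12 h in medium with 5% serum and 0 μM (CON), 100 μM (LOS) or 300 μM (MOS) H2O2, and each group had 3 libraries. The paper states another serum level for the culture medium and no separate one for the treatment. The values are normalized counts, and whether the 3 libraries of a group came from separate cultures or animals is not stated, so a p-value here speaks only of variation among these libraries, which may be technical.

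A mature miRNA finds its target mRNAs mainly through its seed, the bases 2 to 8 from its 5' end, and miRNAs with 1 seed can bind many of the same sites. The miR-15/16 family is known in mammals for holding back the cell cycle, through sites in the mRNAs of G1 cyclins and their kinases, and for lowering the survival protein BCL2. Granulosa cells divide during follicle growth and die by apoptosis in atresia, and the part of the family in either process was not tested here. miR-424 (called miR-322 in rodents) and miR-503 are made from 1 cluster on the mammalian X chromosome together with miR-542 and the miR-450 genes, which carry other seeds.

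The sequences of the main strand of each hairpin and of the entries called below are shown. The seed decides which of the entries belong to the family. The capitals mark bases 2 to 8, and T stands for U, as in the deposited table.
ssc-miR-16: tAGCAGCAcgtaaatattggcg
ssc-miR-15a_R+1: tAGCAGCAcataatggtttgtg
ssc-miR-15b: tAGCAGCAcatcatggtttaca
ssc-miR-195_R+1: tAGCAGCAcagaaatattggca
ssc-miR-497: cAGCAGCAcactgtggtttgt
bta-miR-424-5p: cAGCAGCAattcatgttttga
ssc-miR-424-5p_R-2: cAGCAGCAattcatgttttg
ssc-miR-424-5p_R-3: cAGCAGCAattcatgtttt
ssc-miR-503: tAGCAGCGggaacagtactgcag
ssc-miR-450c-5p: tTTTGCGAtgtgttcctaatac
ssc-miR-450a: tTTTGCGAtgtgttcctaatat
ssc-miR-450b-5p_R-1: tTTTGCAAtatgttcctgaat
ssc-miR-542-3p: tGTGACAGattgataactgaaa
hsa-miR-16-1-3p_R+1: cCAGTATTaactgtgctgctgaa

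The letters AGCAGC at bases 2 to 7 stood in 12 of the 1345 entries (0.892%), all 12 of them among the 29, and in no entry outside these names. AGCAGCA at bases 2 to 8 stood in 10, and the other 2 were the miR-503 pair, which has AGCAGCG. The name of a seed family therefore held for 12 entries only, and the other 17 were the opposite strands of these hairpins and both arms of miR-450 and miR-542. Against ssc-miR-16, counted from 1 at the 5' end, ssc-miR-195_R+1 differed by G10A, T11G and G22A and ssc-miR-503 differed at 10 of the 22 compared positions, the first of them A8G in the seed. ssc-miR-450a and ssc-miR-450c-5p shared 21 of 22 bases and differed by T22C alone, so a read without its last base could not be given to 1 of them. The 4 entries with AGCAGC at bases 1 to 6 were main strands named miR-103 or miR-107, known relatives whose seed is shifted by a base. In the RefSeq annotation of Sscrofa11.1, MIR15A stands next to MIR16-2 on chromosome 11, MIR15B next to MIR16-1 on chromosome 13, MIR195 next to MIR497 on chromosome 12, and MIR450B, MIR450A, MIR450C and MIR542 in a row on chromosome X. The place of miR-424 and miR-503 beside them is taken from other mammals. Both miR-16 loci give the same mature strand, so the ssc-miR-16 value is a sum over them.

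Normalized counts summed to between 5578704 and 6098582 in the CON and LOS libraries and to between 4967112 and 5117859 in MOS. The depth in reads is unknown. Entries named miR-21 and miR-202, fixed as granulosa and gonad markers, held 35.4 to 38.3% of each MOS library, 45.0 to 46.5% of each LOS library and 40.7 to 47.7% of each CON library. ssc-miR-202-5p, the gonad marker itself, lay between 2979 and 3633 in CON, between 3653 and 3966 in LOS and between 1188 and 1781 in MOS. These values were small beside the totals above. The share of the list thus rests on its other entries and does not speak for ssc-miR-202-5p. Red blood cell markers stayed at or under 0.0156% in every library. Epithelial markers (7 entries of the miR-200 family) were low but higher with dose, at 0.00011 to 0.00029% of a CON library, 0.0024 to 0.0031% of a LOS library and 0.0032 to 0.0068% of a MOS library, without overlap of either dose with CON, and their part in the results was not tested. The third MOS library (MOS3) stood apart in the stroma and theca list (8 entries of miR-143, miR-145, miR-199 and miR-214). The list took 4.61, 5.87 and 8.33% of MOS1, MOS2 and MOS3, against 5.80 to 6.81% of the CON and LOS libraries. Nearly all of it was 1 entry, ssc-miR-143-3p, at 396440 of 5049951 normalized counts in MOS3. The difference thus rests on that entry. Results that rest on MOS3 are given below with and without it.

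The strands with the AGCAGC seed were abundant and were led by miR-16. Their 11 sequences together accounted for 1.13 to 1.42% of a CON library, 1.05 to 1.19% of a LOS library, and 1.73, 1.65 and 1.19% of MOS1, MOS2 and MOS3. ssc-miR-16 held 65.3 to 73.0% of that sum in the 9 libraries. The normalized counts of ssc-miR-16 were 56582, 54279 and 47723 in CON, 46220, 43415 and 50462 in LOS, and 63270, 60012 and 39238 in MOS. The MOS libraries thus held both the 2 highest values and the lowest one, and the groups overlapped.

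**Figure D1:**
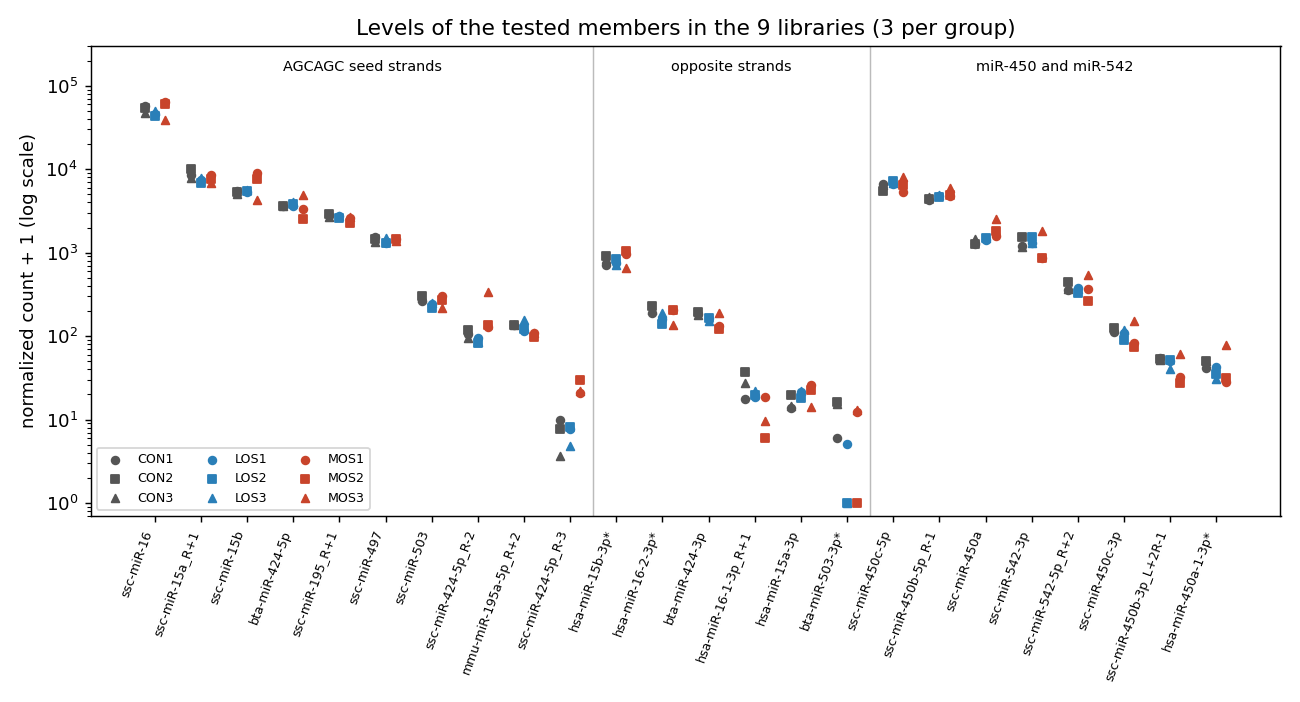
Normalized count plus 1 on a log axis for the 24 tested sequences, with 1 point per library (circle, square and triangle for libraries 1, 2 and 3 of CON, LOS and MOS) and an asterisk for a name shortened at the end. ssc-miR-16 is the highest entry in all 9 libraries, and the red triangle (MOS3) is the lowest point for ssc-miR-16 and ssc-miR-15b and the highest for all 8 miR-450 and miR-542 entries.

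ssc-miR-15a_R+1, the partner of miR-16 on chromosome 11, was at 8488, 10073 and 7896 in CON, 7492, 6902 and 7800 in LOS and 8485, 7631 and 6907 in MOS. All LOS values were below all CON values, and MOS overlapped CON. ssc-miR-15b, the partner on chromosome 13, was at 5513, 5400 and 5007 in CON, 5284, 5442 and 5710 in LOS and 8975, 7717 and 4335 in MOS. MOS1 and MOS2 were the highest of the 9 libraries for miR-15b and MOS3 was the lowest.

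miR-195 and miR-497 share a locus. ssc-miR-195_R+1 was at 2794, 2928 and 2666 in CON, 2723, 2611 and 2732 in LOS and 2600, 2262 and 2652 in MOS. Its longer form mmu-miR-195a-5p_R+2, with 1 more T at the 3' end, was at 135, 135 and 134 in CON, 114, 120 and 155 in LOS and 107.2, 95.6 and 107.3 in MOS. Every MOS library was below every CON library for both lengths of miR-195. ssc-miR-497 was at 1526, 1464 and 1355 in CON, 1322, 1314 and 1486 in LOS and 1453, 1451 and 1383 in MOS, with all groups overlapping.

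The main form of miR-424, bta-miR-424-5p of 21 nt, was at 3652, 3604 and 3636 in CON, 3574, 3790 and 4096 in LOS and 3345, 2554 and 4905 in MOS. The CON values lay close together, while the MOS libraries held both the lowest and the highest value. ssc-miR-503 was at 261, 304 and 283 in CON, 242, 215 and 249 in LOS and 304, 270 and 216 in MOS. All LOS values of miR-503 were below all CON values, and MOS spanned both.

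At 100 μM H2O2 none of the entries passed the test. Of the 29, 25 (24 sequences) reached 10 normalized counts in 3 or more libraries and were tested, and 0 of them were called for LOS against CON at an adjusted p under 0.05 in limma, where 2.91% of all 757 tested entries were called (2.51% higher and 0.396% lower). At an unadjusted p under 0.05 there was 1 of 25, against 9.64% of all tested entries. That 1 was the minor strand bta-miR-503-3p_L+1R-2_1ss4AG, at 5.06, 15.2 and 14.4 in CON and at 4.08, 0 and 0 in LOS (log2 fold change -2.74, SE 1.04, limma adjusted p = 0.37). The miR-503 pair, 1 sequence, counts under both of its names in the following 7. The CON and LOS groups did not overlap in 7 of 25 entries (28%), where the share over all tested entries was 20.6%.

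These 7 were lower in LOS for ssc-miR-15a_R+1, hsa-miR-16-2-3p_L+1R-1_1ss11CT, bta-miR-424-3p, the miR-503 pair and the miR-503 minor strand, and higher for ssc-miR-450c-5p. The fitted change of ssc-miR-16 was -0.18 (95% interval -0.56 to 0.21) and that of ssc-miR-15a_R+1 was -0.25 (95% interval -0.52 to 0.02), both on the log2 scale of the count plus 1. The median change of the 25 was -0.12, beside 0 for all tested entries.

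At 300 μM H2O2, ssc-miR-450a rose, hsa-miR-16-1-3p_R+1 fell and 22 of the 25 tested entries did not pass the test. The remaining entry, ssc-miR-424-5p_R-3, was called higher but was tested only because its MOS values passed the filter. None of the 3 was an abundant seed strand. The 3 called of 25 (12%) stand beside 29.3% called over all 757 tested entries for MOS against CON in limma (20.2% higher and 9.11% lower). At an unadjusted p under 0.05 there were 5 of 25, beside 39.5% of all tested entries. The CON and MOS groups did not overlap in 6 of 25 (24%), beside 41.3% over all tested entries. The median change of the 25 was -0.11, beside 0.07 for all tested entries.

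ssc-miR-450a was the abundant one of the 3. It was at 1278, 1260 and 1451 in CON, 1405, 1498 and 1504 in LOS and 1564, 1810 and 2560 in MOS. All MOS values were above all CON and LOS values, and the fitted rise over CON was 0.54 (SE 0.17, limma adjusted p = 0.0369). The call rested on small margins: it was lost without CON1, CON2, CON3, LOS1, LOS2, LOS3 or MOS2 (adjusted p 0.0575 to 0.109), and the rise was 0.34 without MOS3 (adjusted p = 0.0233). It held in 11 of 20 alternatives.

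hsa-miR-16-1-3p_R+1, the minor strand of a miR-16 hairpin, fell. It was at 16.4, 35.7 and 26.2 in CON, 17.7, 18.7 and 20.9 in LOS and 17.5, 5.10 and 8.67 in MOS. MOS1 lay above CON1, so the groups overlapped, and the fitted change was -1.33 (SE 0.43, limma adjusted p = 0.0427). The call was lost without CON2, CON3, any LOS library, MOS2 or MOS3 (adjusted p 0.0622 to 0.15) and with equal library totals (adjusted p = 0.0659), and it held in 7 of 18 alternatives.

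The third was ssc-miR-424-5p_R-3, a shortened form described with its parent below. For ssc-miR-16 the fitted change between MOS and CON was 0.01 with a 95% interval from -0.38 to 0.39. The same interval was -0.17 to 0.84 for ssc-miR-15b, -0.51 to 0.38 for bta-miR-424-5p and -0.25 to 0.21 for ssc-miR-497. Changes inside these intervals were not excluded by this fit.

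**Figure D2:**
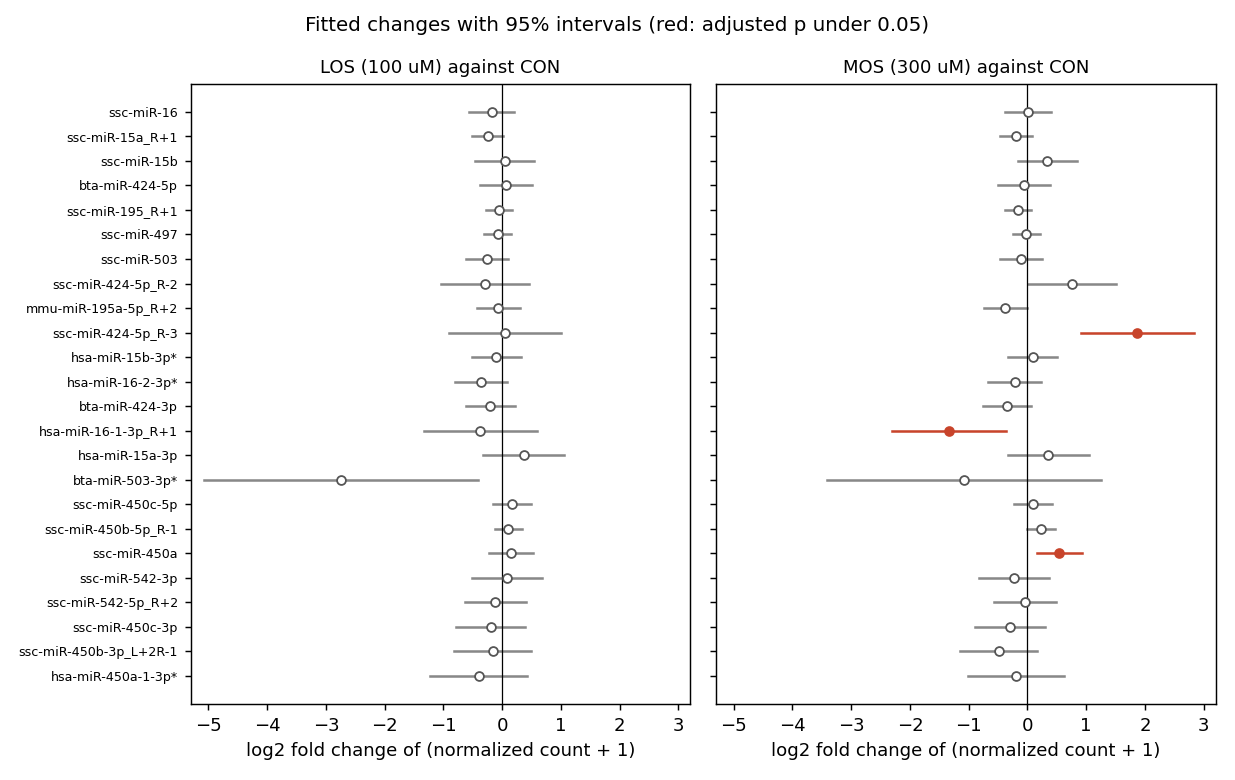
Fitted log2 fold change of the count plus 1 with its 95% interval for the 24 tested sequences, LOS against CON on the left and MOS against CON on the right, with red for an adjusted p under 0.05. No entry is red at 100 μM, and ssc-miR-424-5p_R-3 (1.87), ssc-miR-450a (0.54) and hsa-miR-16-1-3p_R+1 (-1.33) are red at 300 μM.

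Between the 2 doses, MOS against LOS, 2 of 25 entries (8%) rose and 0 fell, beside 29.7% called over all tested entries (18.9% higher and 10.8% lower). At an unadjusted p under 0.05 there were 3 of 25, beside 40.8% of all tested entries. Both were shortened forms of miR-424-5p, and 1 of them, ssc-miR-424-5p_R-3, was tested only through its MOS values. The groups did not overlap in 5 of 25 (20%), beside 41.1% over all tested entries.

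miR-424-5p was read in 3 main lengths of 21, 20 and 19 nt with the same 5' end and seed. ssc-miR-424-5p_R-2, of 20 nt, was at 106, 119 and 92.9 in CON, 94.5, 81.4 and 83.5 in LOS and 128, 134 and 338 in MOS. Every MOS library was above every other library, with MOS3 far above MOS1 and MOS2. Its rise was 1.05 over LOS (SE 0.33, limma adjusted p = 0.0386) and 0.77 over CON, which did not pass (SE 0.33, adjusted p = 0.118). The call over LOS was lost without any 1 of the CON or LOS libraries (adjusted p 0.0545 to 0.11), and without MOS3 the rise was 0.60 (adjusted p = 0.0145). This call held in 10 of 19 alternatives.

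ssc-miR-424-5p_R-3, of 19 nt, was at 8.85, 6.70 and 2.71 in CON, 6.80, 7.21 and 3.80 in LOS and 19.95, 28.7 and 21.1 in MOS. It passed the filter on low values only through the MOS libraries, so it had to differ to be tested, and the study's own list of changed miRNAs holds it. The fitted rise was 1.87 over CON (SE 0.43, limma adjusted p = 0.00902) and 1.83 over LOS (SE 0.43, adjusted p = 0.0106). Because of how it entered the test, these values describe it and support nothing further. Summed with the other ssc-miR-424-5p variants, the rise over CON was 0.88 and did not pass (limma adjusted p = 0.063). That sum leaves out the 21-nt bta-miR-424-5p, which held most of the arm.

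The shares within the arm do not depend on the library scaling. The 20-nt form made up 2.82, 3.18 and 2.49% of all miR-424-5p in CON, 2.57, 2.099 and 1.995% in LOS and 3.68, 4.93 and 6.42% in MOS. The 19-nt form made up 0.235, 0.18 and 0.0725% in CON, 0.185, 0.186 and 0.0907% in LOS and 0.571, 1.06 and 0.401% in MOS. Both shares were higher in all MOS than in all CON libraries, and the 21-nt share was lower, at 95.8, 94.0 and 93.2% in MOS against 96.6 to 97.4% in CON (exact permutation p = 0.1 for each, two-sided, the smallest that 3 against 3 libraries allow). Entries of 18 to 20 nt rose more often than longer ones over the whole table at this dose, 48.8% of 172 tested against 11.8% of 585, and in LOS against CON the shares were 3.49 and 2.22%. For MOS against LOS they were 52.3 and 9.06%. Entries that were low in CON and LOS could enter the test only through their MOS values, as the 19-nt form did. This favors higher calls in MOS, and its part in the length contrast was not tested. The 2 shortened forms were the only tested entries of these names with 20 nt or fewer. Whether RNA quality had a part in the shorter reads of MOS was not tested.

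**Figure D3:**
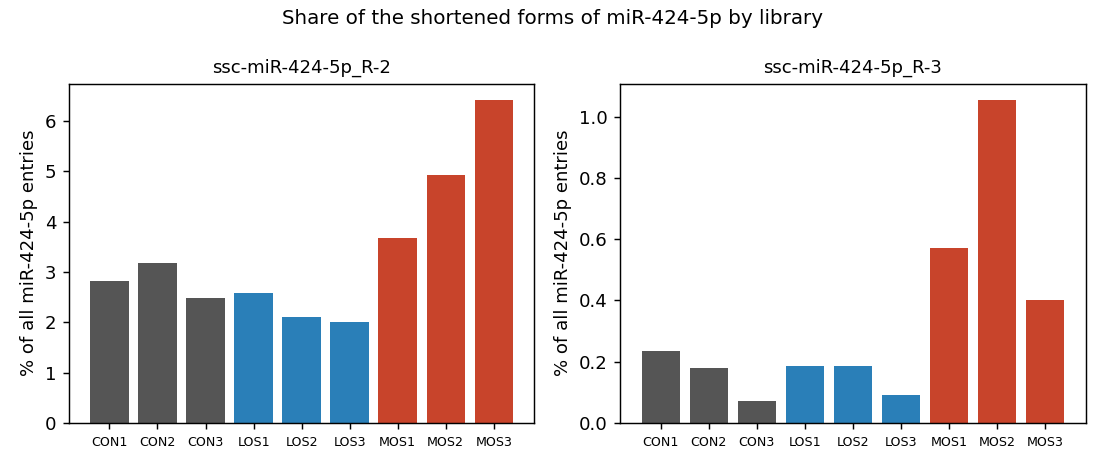
Percent of all miR-424-5p counts held by the 20-nt form (left) and the 19-nt form (right), 1 bar per library, both axes from 0. The 3 MOS bars are the tallest in both panels, up to 6.42% and 1.06%.

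For miR-195 the share of the longer form was also lower in MOS. The 23-nt form held 4.62, 4.40 and 4.77% of miR-195-5p in CON, 4.03, 4.41 and 5.36% in LOS and 3.96, 4.05 and 3.89% in MOS. All MOS values were below all CON values (exact permutation p = 0.1, two-sided), and LOS overlapped CON.

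Among the neighbors without the family seed, miR-450c-5p and miR-450b-5p were at levels near those of miR-15a and miR-15b, and miR-450a and miR-542 were lower. ssc-miR-450c-5p was at 6567, 5511 and 6421 in CON, 6715, 7319 and 6755 in LOS and 5397, 6502 and 8015 in MOS. ssc-miR-450b-5p_R-1 was at 4281, 4340 and 4708 in CON, 4748, 4664 and 4941 in LOS and 4826, 4951 and 5935 in MOS. The MOS values of miR-450b-5p were all above CON, and the change of 0.23 did not pass (SE 0.10, limma adjusted p = 0.127); with equal library totals it did (0.44, adjusted p = 0.0092). Added up, because their reads differ at the last base only, miR-450a and miR-450c 5p counts were 7845, 6772 and 7872 in CON, 8120, 8821 and 8259 in LOS and 6960, 8312 and 10575 in MOS, so the sum of MOS overlapped CON.

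ssc-miR-542-3p, the main strand of its hairpin, was at 1208, 1536 and 1182 in CON, 1296, 1540 and 1306 in LOS and 869, 858 and 1813 in MOS. ssc-miR-542-5p_R+2 was at 354, 438 and 366 in CON, 373, 329 and 363 in LOS and 370, 260 and 536 in MOS. For both arms of miR-542 the highest of the 9 libraries was MOS3 and the lowest was MOS2.

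The MOS libraries differed between the autosomal entries and those of miR-424, miR-503, miR-450 and miR-542. On the log2 scale, MOS3 over the mean of MOS1 and MOS2 had a median of 0.75 over the 15 tested entries of miR-424, miR-503, miR-450 and miR-542 (0.77 over their 14 sequences), of -0.40 over the 10 tested autosomal entries, and of -0.01 over all tested entries. MOS3 was the highest of the 9 libraries in 10 of the 15, beside 18.5% of all tested entries. It was the lowest of the 9 in 4 of the 10 autosomal entries, namely miR-15b, miR-16 and their minor strands hsa-miR-15b-3p_1ss1CT and hsa-miR-16-2-3p_L+1R-1_1ss11CT, beside 12.5% of all tested entries. The exceptions in the cluster were the 5p strand of miR-503 at -0.40 and ssc-miR-424-5p_R-3 at -0.17. The miR-503 minor strand went the other way, at 1.89, on low values of 11.2, 0 and 11.9 in MOS. miR-195 and miR-497 lay between -0.07 and 0.13.

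Beside this split, marker lists also differed between MOS3 and the other MOS libraries, in both directions. The stroma and theca list took 4.61 and 5.87% of MOS1 and MOS2 and 8.33% of MOS3. This was almost wholly ssc-miR-143-3p, at 219125, 277482 and 396440, and does not speak for the other entries of the list. Endothelial markers took 0.0479, 0.0479 and 0.0702% and leukocyte markers 0.0196, 0.0306 and 0.0415% of the same libraries, against 0.0518 to 0.0639% and 0.0397 to 0.0480% in CON and LOS. Muscle markers took 0.0210, 0.0197 and 0.0310%, against 0.0276 to 0.0327% in CON and LOS. For leukocyte and muscle markers MOS3 lay inside the CON and LOS range, and MOS1 and MOS2 lay below it. Epithelial markers went the other way, at 0.0067, 0.0068 and 0.0032% of MOS1, MOS2 and MOS3. Red blood cell markers were highest in MOS2, at 0.0156%. No list had an entry at 0 in all libraries. The part of other cell types in the split was not tested. In bulk RNA, a larger share of a cell type and more of the miRNA per cell cannot be told apart.

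**Figure D4:**
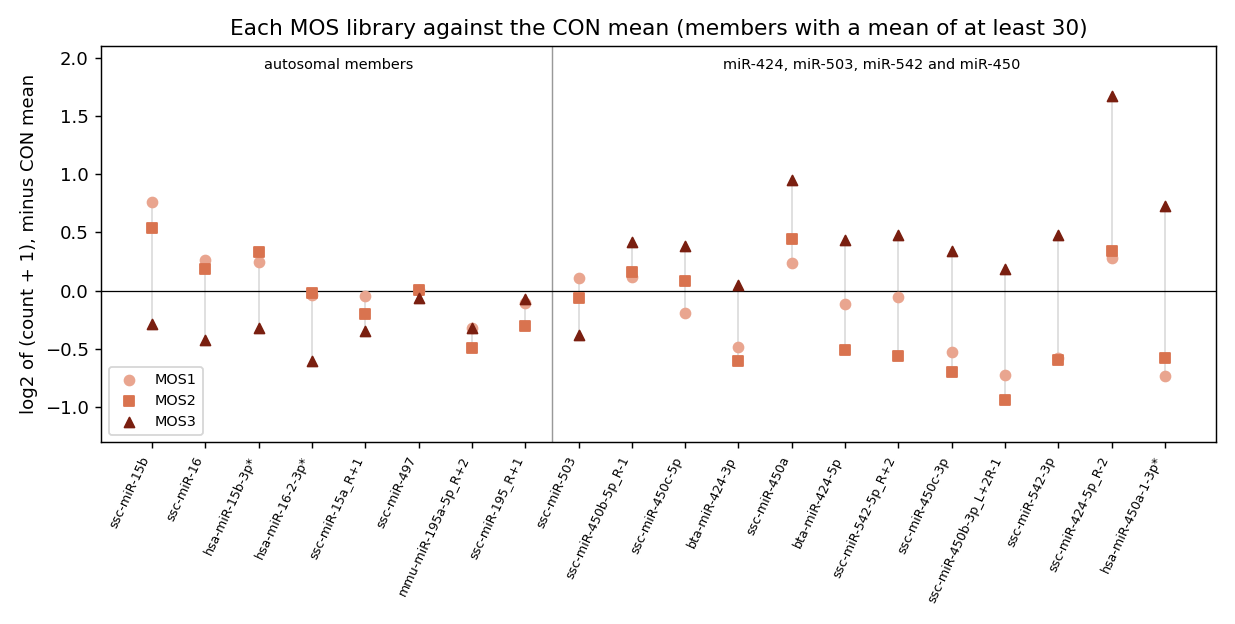
Log2 of the count plus 1 of each MOS library minus the CON mean, for tested sequences with a mean of at least 30 over the 9 libraries, autosomal entries on the left and miR-424, miR-503, miR-542 and miR-450 on the right. MOS3 (triangles) is the lowest of the 3 for miR-15b, miR-16 and their minor strands and the highest for every entry of the right panel except ssc-miR-503.

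Without MOS3 more of the entries were called. MOS1 and MOS2 alone then stood for MOS, and MOS3 was singled out after its values were seen. These calls are a description. Against CON, 8 of 25 passed, where the number over all 757 tested entries went from 222 to 358. ssc-miR-15b rose by 0.65 (limma adjusted p = 0.000716) and ssc-miR-450a by 0.34 (adjusted p = 0.0233). Leaving out MOS3, the lowest library for ssc-miR-15b, took its change up from 0.34 and its SE down from 0.22 to 0.09. ssc-miR-424-5p_R-3 (1.93, adjusted p = 0.0128) is counted among the passes against CON and against LOS, though it was tested only through its MOS values. The 5 that fell were the minor strands bta-miR-424-3p (-0.54), ssc-miR-450c-3p (-0.61), hsa-miR-450a-1-3p_L-1_2ss8AG20TC (-0.66) and ssc-miR-450b-3p_L+2R-1 (-0.83), and the main strand ssc-miR-542-3p (-0.59), with adjusted p from 0.00653 to 0.0398. Against LOS, 9 of 25 passed without MOS3, beside 341 of 757 over all tested entries, among them ssc-miR-16 (0.40, adjusted p = 0.0136), ssc-miR-15b (0.60, adjusted p = 0.00108) and, lower, bta-miR-424-5p (-0.38, adjusted p = 0.0282).

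The minor strands of the family hairpins summed to 1.42 to 1.88% of the seed strands. hsa-miR-15b-3p_1ss1CT was the largest, at 708, 913 and 849 in CON, 752, 833 and 716 in LOS and 973, 1032 and 653 in MOS. hsa-miR-16-2-3p_L+1R-1_1ss11CT was at 187, 231 and 207 in CON, 161, 140 and 187 in LOS and from 137 (MOS3) to 205 (MOS2) in MOS, with a MOS mean of 181 ± 38.8 (SD, n = 3). bta-miR-424-3p was at 183, 191 and 178 in CON, 164, 166 and 149 in LOS and 132, 120 and 190 in MOS. The miR-15b and miR-16-2 minor strands had MOS3 lowest, as their main strands did, and the miR-424 one had MOS1 and MOS2 lowest.

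ssc-miR-450c-3p was at 112, 124 and 120 in CON, 106.8, 89.0 and 117 in LOS and 82.3, 72.7 and 151 in MOS. Its MOS3 value was the highest of the 9 and its MOS1 and MOS2 values were the lowest. The other tested minor strands were low: hsa-miR-15a-3p ranged from 12.6 to 24.9, hsa-miR-450a-1-3p_L-1_2ss8AG20TC from 27.4 to 76.9 and ssc-miR-450b-3p_L+2R-1 from 26.8 to 59.6 over the 9 libraries.

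The balance of the arms was compared within each library for the 8 hairpins with both arms at a mean of at least 10, as log2 of the 5p count over the 3p count. miR-542 was the only 1 of the 8 with more 3p than 5p, at -1.75 in CON. In MOS the balance was shifted towards 5p in every library for miR-424 (4.72, 4.48 and 4.78 against 4.36, 4.28 and 4.38 in CON), miR-450a (5.78, 5.84 and 5.04 against 4.95, 4.63 and 4.87) and miR-450b (7.23, 7.48 and 6.61 against 6.27, 6.36 and 6.51). It was shifted towards 3p for miR-15a (8.35, 8.40 and 8.95 against 9.28, 8.99 and 9.09), and the groups overlapped for the other 4 hairpins. In LOS the groups were apart in the same direction for miR-424 (mean difference 0.27), miR-450a (0.55) and miR-15a (-0.62), and LOS and MOS share the CON libraries. The 3p strand of miR-15a was low, at 12.6 to 24.9, and a pseudocount of 10 moved its LOS difference to -0.49. The 5p counts of miR-450a and miR-450c are told apart by the last base alone. No such difference could go below an exact permutation p of 0.1 (two-sided), and 16 comparisons of this kind were made, so none passed the threshold. Hairpins outside these names were not compared, so no share over the whole table stands beside these counts. For single entries, 41.3% of all tested did not overlap for MOS against CON and 20.6% for LOS against CON.

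**Figure D5:**
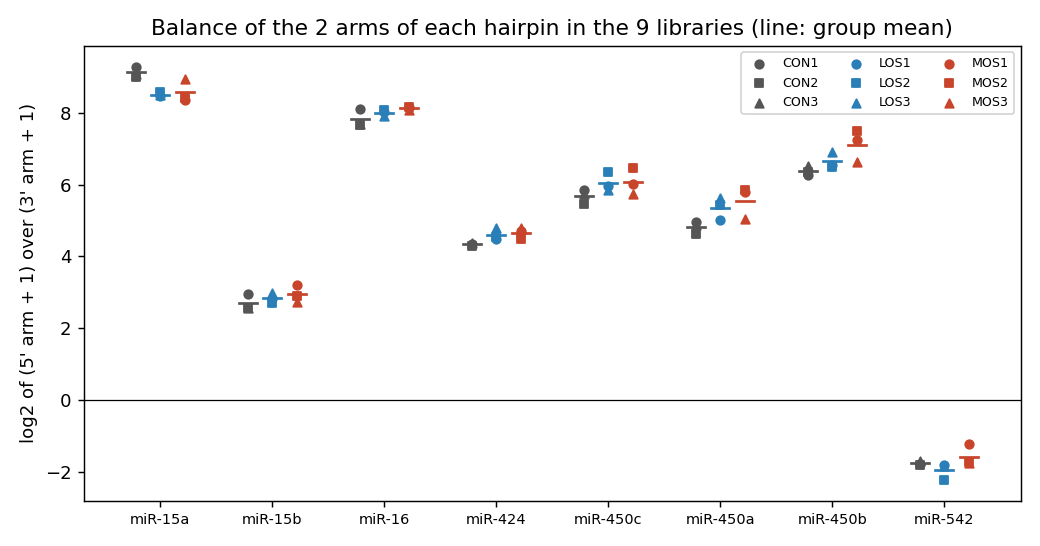
Log2 of the 5p count plus 1 over the 3p count plus 1 in each library for 8 hairpins, with the group mean as a line. The CON points lie below all MOS points for miR-424, miR-450a and miR-450b and above them for miR-15a, and miR-542 alone lies below 0.

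The 4 entries that were too low to test were hsa-miR-195-3p_R+1_2ss4AG20TC (0 to 10.8), ssc-miR-424-5p_R-1_1ss11TA (2.37 in LOS3 and 0 elsewhere), rno-miR-450a-5p (3.39 in LOS2 and 0 elsewhere) and hsa-miR-497-3p. The last was at 5.06, 4.46 and 7.22 in CON, at 2.72, 0 and 3.80 in LOS and listed at 0 in all 3 MOS libraries. With no filter on low values hsa-miR-497-3p was called lower in MOS than in CON (limma adjusted p = 0.0101).

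By role, MOS against CON called 1 of 11 tested seed strands higher (median change -0.06), 1 of 6 minor strands of the family lower (median -0.28) and 1 of 8 miR-450 and miR-542 entries higher (median -0.12). Over all tested entries 20.2% were higher and 9.11% lower, with a median of 0.07, and the 1 seed strand was ssc-miR-424-5p_R-3. Of the 6 tested entries named miR-103 or miR-107, some of them opposite strands without the shifted hexamer, 1 was lower and none higher (median -0.35). Among 46 tested entries of other miRNAs known for G1 cyclins and their kinases (let-7, miR-98, miR-34, miR-26, miR-29 and miR-449a names), 2 rose and 9 fell (median -0.14). In LOS against CON the same 46 had 0 higher and 1 lower, and in MOS against LOS they had 2 higher and 8 lower.

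The pattern of ssc-miR-16 over the 9 libraries was most like that of bta-miR-25 (Pearson r = 0.88 on the log2 scale), ssc-miR-92a (0.87), ssc-miR-363_R-1 (0.85), ssc-miR-181a_R-1 (0.85) and ssc-miR-130b (0.85), out of 368 other entries with a mean of at least 100. The libraries of a group share their treatment, so these values describe 9 libraries and carry no test. ssc-miR-92a, for example, was at 19039, 18115 and 18155 in CON, 17800, 18575 and 18361 in LOS and 29081, 27917 and 12457 in MOS, so like miR-16 it had MOS1 and MOS2 highest and MOS3 lowest.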

How the data were processed

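Small RNA of PGCs was measured in 9 libraries, and the entries and gene lists were chosen with earlier results of these data known. The authors built TruSeq small-RNA libraries and, with ACGT101-miR, removed adapters, junk and other RNA families and matched reads of 18 to 26 nt to miRBase 21. The sample labels and the paper give different amounts of input RNA. The deposited unit is a signal, a normalized count per entry and library; its formula and the genome build are not given in the sources used here. Values under 400 were whole multiples (tolerance 0.01) of the library's lowest value in 13.3 to 83.0% of cases and of a quotient of it, found separately for each library, in 98.9 to 100%. The true value of 1 read is not given, so these steps were not taken as reads.

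Entries with at least 10 in at least 3 libraries (757 of 1345) were fitted on log2 of the count plus 1 with limma 3.58.1 (trend) in R 4.3.3, with all 9 libraries and group as the only term, and adjusted by Benjamini-Hochberg per comparison. The 3 groups share 1 spread per entry. Libraries correlated less within MOS (0.957 to 0.965) than within CON (0.984 to 0.990), so the MOS spread may be understated. Arm ratios and length shares used exact permutation tests (Python 3.11.15). All values are printed for entries called or with a mean of at least 100. The authors' fold changes and p-values were not used. Alternatives covered trend, scaling, pseudocount, filter, libraries fitted, a replicate block, each library left out, and summed or unique entries.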

Additional observations from a re-analysis of the deposited data

Results flagged for a closer look

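The rises of the shortened miR-424-5p forms between the doses differed from the changes at the lower dose: MOS was above LOS by 1.051 on the log2 scale for ssc-miR-424-5p_R-2 and by 1.83 for ssc-miR-424-5p_R-3, while LOS against CON gave -0.29 and 0.04 for the same entries. Both changes use the LOS libraries, with opposite signs, so low LOS values alone raise the first and lower the second. The 19-nt form was tested only because its MOS values passed the filter, so its value is a description; the 20-nt form had a limma adjusted p of 0.0386.

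A further miR-503 entry lay outside the names because it is written in lower case. ssc-mir-503-p3, a predicted arm of 20 nt, was at 6.23 in MOS1, 5.10 in MOS2 and 0 in the other 7 libraries, CON included.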

How the results depend on the processing

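No entry of these names was called for LOS against CON in any alternative. The 3 calls of MOS against CON became 1 with a filter of at least 50 in 3 libraries, 1 with the 6 libraries of the comparison and 1 with variants of a name summed, and 1 to 8 when 1 library was left out (8 without MOS3). The 2 calls of MOS against LOS became 1 without trend, 4 with equal library totals, 1 with the filter of 50, 1 with 6 libraries, 1 with variants summed, and 1 to 9 when 1 library was left out (9 without MOS3). With the variants summed, the ssc-miR-424-5p forms together gave 1.13 over LOS (limma adjusted p = 0.023) and 0.88 over CON, which did not pass (adjusted p = 0.063). Of 1366 refitted values that stayed uncalled, 47 changed sign. Of 224 arm ratios and length shares recomputed, 1 moved by more than 1 SD, the miR-15a arm ratio of LOS against CON at a pseudocount of 10. Equal totals shifted the median of all tested entries for MOS against CON from 0.07 to 0.28; hsa-miR-16-1-3p_R+1 then lost its call and ssc-miR-450b-5p_R-1 gained one. They also turned the 153 higher and 69 lower calls over all entries into 194 and 31, and for MOS against LOS 82 lower among 225 calls into 44 among 273. Over all entries, MOS against CON called 137 and MOS against LOS 146 with the filter of 50. The calls over all entries also fell in both comparisons with 6 libraries and with variants summed, and for MOS against LOS without trend. When 1 library was left out they rose only without MOS3 and fell otherwise. For MOS against LOS without MOS1 or MOS2, the calls of these names rose while those over all entries fell.

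Replicate numbers did not pair the libraries (correlations of same-numbered deviations -0.08 to 0.18). With a replicate block, MOS against CON called 2 (208 over all entries), without hsa-miR-16-1-3p_R+1 (limma adjusted p = 0.0783), MOS against LOS called 1 (215), without ssc-miR-424-5p_R-2 (0.0576), and LOS against CON called 0 (19).

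The planned count model was not run, because the steps of the values were not taken as whole reads. Entries near 10 counts, such as the 19-nt miR-424-5p and the miR-503 minor strand, are limited by depth, which is unknown.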
